A study of Mus musculus with 6 samples.

Results

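Schwann cells are the glia of peripheral nerve. They wrap axons and, around the larger ones, form myelin, a stack of membrane held together by a small set of dedicated proteins. Their identity depends on the transcription factor Sox10, which acts on many myelin genes, and an artery carries them in the thin nerve bundles of its outer coat. Expression was followed for 8 genes of this lineage, chosen by name: the regulator Sox10, the myelin proteins Mbp, Pmp22, Mag and Prx, the adhesion protein Cdh19, and the calcium-binding protein S100b and neurotrophin receptor Ngfr, both used as glial markers. Of these 8 genes, 7 had a probe set with a single gene symbol, 1 probe set each, out of 19938 genes so named on the array. Prx, periaxin, had no probe set with a single gene symbol in the platform annotation used here and is not analysed here. The probe sets of 6 of the 7 measured genes passed the filter on dim signals, which left out the lowest 40% by mean over all arrays. Mag was the exception and was read from the same model fitted without the filter.

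RNA labelled as aorta was hybridised to one-colour Affymetrix arrays, 1 per sample, for 3 Trail knockout and 3 wild-type mice. All were 6 weeks old and of the C57Bl6/J strain per the labels, and the knockout animals came from Amgen. Trail, the product of Tnfsf10, is a secreted and membrane-bound cytokine that can trigger cell death, and the comparison asks what its loss changes in the vessel. The labels describe neither the construction of the allele, nor which part of the aorta or of its surrounding tissue was taken, nor whether animals were pooled.

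Several arrays stood apart, which touches every comparison below. Across annotated probe sets, which are not independent replicates, the array wild type 1 correlated with the others at r of 0.899 to 0.907, while r among the other 5 was 0.974 to 0.996. On wild type 1, adipocyte genes had a list median of 11.15 on the log2 scale against 6.60 to 8.02 elsewhere, squamous epithelium genes 5.01 against 10.48 to 10.66, and skeletal muscle genes 5.70 against 11.11 to 11.69. On knockout 2, stomach epithelium genes had a list median of 12.44 against 5.04 to 7.75. Tnfsf10 gave 8.42 on wild type 1, 4.90 and 4.85 on wild type 2 and 3, and 4.09 to 5.02 on the knockout arrays, so it does not set wild type 2 and 3 apart from the knockout group. The smooth muscle actin gene Acta2 lay between 12.27 and 12.63 on all arrays. The median of the 7 smooth muscle genes, which include Acta2, was 9.57 on wild type 1 against 10.80 to 11.41 elsewhere. Wild type 1 was lowest for 2 of the 7, Cnn1 and Des, and highest for 1, Smtn. Over all annotated probe sets it was lowest for 25.8% and highest for 32.2%. Expression values are log2 throughout and differences are knockout minus wild type unless another is named. In bulk RNA, fewer cells of a type and less RNA per cell cannot be told apart. The number of arrays and the spread between them limit the precision, and nothing says how the samples of a group relate, so p-values measure only the spread between these samples.

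The upstream sequences of S100b and Ngfr are shown because these were the 2 measured genes with their highest value on wild type 1. Each is the 250 bases before the annotated start from RefSeq on GRCm38.p6, chr10:76253586-76253835 on the plus strand for S100b and chr11:95587699-95587948 on the minus strand for Ngfr. Capitals mark matches to any of 6 motifs searched on both strands, namely ACAAAG and ACAATG (cores bound by Sox proteins), CATTCC (Tead), GGGCGG (the GC box), TATAAA (the TATA box) and TTGCNNAA (C/EBP).
S100b: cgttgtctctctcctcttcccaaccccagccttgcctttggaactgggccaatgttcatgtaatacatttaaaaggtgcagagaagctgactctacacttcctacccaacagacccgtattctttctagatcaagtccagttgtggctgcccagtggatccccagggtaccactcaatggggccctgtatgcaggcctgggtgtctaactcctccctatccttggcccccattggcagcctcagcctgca
Ngfr: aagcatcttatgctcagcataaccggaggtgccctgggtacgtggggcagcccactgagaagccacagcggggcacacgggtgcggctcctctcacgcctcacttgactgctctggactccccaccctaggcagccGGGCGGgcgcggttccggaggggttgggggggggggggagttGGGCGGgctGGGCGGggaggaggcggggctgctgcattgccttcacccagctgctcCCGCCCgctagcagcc

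The Ngfr window held the GC box 4 times and none of the other motifs, and the S100b window held none of the 6. Of 32851 windows of this length in the table, 32.7% held a GC box, 16.5% ACAAAG, 10.7% ACAATG, 12.6% CATTCC, 12.4% TATAAA and 9.56% TTGCNNAA. These are letter matches in 1 window per gene and say nothing of which factor is bound. With no match in the S100b window, the 2 genes could share none of these motifs, and no conclusion is drawn from that.

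None of the 7 measured genes differed between the genotypes beyond the spread of the arrays. By limma's moderated test with Benjamini-Hochberg adjustment over all probe sets, 0 of 7 had an adjusted p under 0.05, and their adjusted p-values ran from 0.921 to 0.979. Over all 14046 probe sets tested, 0 (0%) passed. At an unadjusted p under 0.05, 0 of the 7 and 89 of the 14046 (0.634%) qualified. The values of the knockout and wild-type arrays overlapped for all 7 genes, whereas the groups did not overlap for 5.6% of the probe sets tested. By sign alone, 4 of 7 were higher in the knockout, against 50.6% of all annotated probe sets and 43.5% of those tested. The median difference of the 7, which include Mag from below the filter, was 0.073, against 0.0024 over all annotated probe sets. For the 6 above the filter it was 0.024, with 3 of 6 higher, against -0.032 over the probe sets tested. Without wild type 1, 5 of 7 were higher, with a median of 0.068, against 52% of all annotated probe sets and 41.6% of those tested. Of the 7, 0 then passed at an adjusted or an unadjusted p under 0.05, where 0% and 1.54% of the probe sets tested did.

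**Figure D1:**
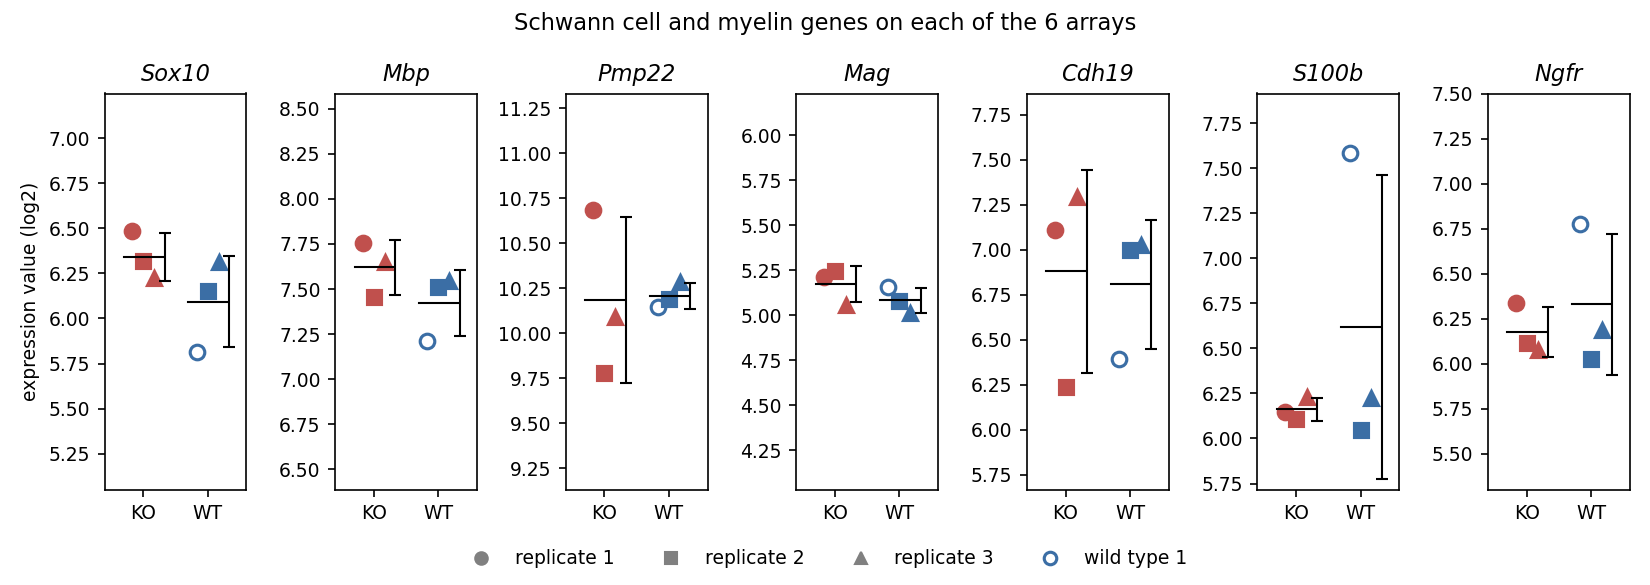
Expression value (log2) of the 7 measured Schwann cell and myelin genes on each array, by group (KO, knockout; WT, wild type), with the group mean as a line and the SD (n = 3) as a bar; every panel spans the same height. Wild type 1, the open circle, is lowest for Sox10 (5.81) and Mbp (7.21) and highest for S100b (7.59) and Ngfr (6.77).

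Sox10, the lineage regulator, gave 6.48, 6.32 and 6.22 on knockout 1, 2 and 3 and 5.81, 6.15 and 6.31 on wild type 1, 2 and 3. Its lowest array was wild type 1, and knockout 2 and wild type 3 were almost level. Knockout arrays averaged 6.34 ± 0.13 and wild-type arrays 6.09 ± 0.25 (SD, n = 3 each). The difference was 0.25 (SE 0.16, 95% interval -0.15 to 0.65, limma adjusted p = 0.921), and 0.11 (SE 0.14) without wild type 1.

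Mbp encodes myelin basic protein, which compacts the inner faces of the myelin membrane. It gave 7.76, 7.45 and 7.65 on the knockout arrays and 7.21, 7.51 and 7.55 on the wild-type arrays. As for Sox10, wild type 1 was lowest and knockout 1 highest. The means were 7.62 ± 0.15 and 7.42 ± 0.18 (SD, n = 3 each). The difference was 0.20 (SE 0.15, 95% interval -0.16 to 0.56, limma adjusted p = 0.921), and 0.093 (SE 0.13) without wild type 1.

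Pmp22 encodes a membrane protein of compact myelin whose dosage matters in inherited neuropathy, and it is also made by fibroblasts and epithelia. It gave 10.68, 9.78 and 10.09 on the knockout arrays and 10.15, 10.19 and 10.29 on the wild-type arrays. The knockout arrays held both its highest and its lowest value, with the 3 wild-type arrays between them. The means were 10.18 ± 0.46 and 10.21 ± 0.07 (SD, n = 3 each). The difference was -0.025 (SE 0.24, 95% interval -0.62 to 0.57, limma adjusted p = 0.979). It was 0.18 without knockout 2, -0.27 without knockout 1 and -0.056 without wild type 1, so its sign rested on single arrays. Fibroblast genes had a list median of 10.02 on wild type 1 and 10.43 to 10.83 elsewhere.

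Mag encodes myelin-associated glycoprotein, which sits on the membrane facing the axon. It lay below the filter on dim signals. Its values were 5.21, 5.25 and 5.06 on the knockout arrays and 5.16, 5.08 and 5.02 on the wild-type arrays, a range of 0.23 over all 6. That was narrower than the median range of annotated probe sets, 0.51. The difference was 0.090 (SE 0.10, 95% interval -0.16 to 0.34, limma adjusted p = 0.951).

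Cdh19, a cadherin that marks Schwann cells and their precursors, was the most variable of the 7 genes among the knockout arrays. It gave 7.11, 6.24 and 7.30 there and 6.40, 7.001 and 7.03 on the wild-type arrays. Knockout 2 and wild type 1 were low and the other 4 arrays lay together. The means were 6.88 ± 0.56 and 6.81 ± 0.36 (SD, n = 3 each). The difference was 0.073 (SE 0.33, 95% interval -0.74 to 0.89, limma adjusted p = 0.961). It turned to -0.13 without wild type 1 and was 0.39 without knockout 2.

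S100b encodes a small calcium-binding protein of Schwann cells that fat and cartilage cells also make. It gave 6.15, 6.11 and 6.23 on the knockout arrays and 7.59, 6.04 and 6.22 on the wild-type arrays. Only wild type 1 stood away, and the other 5 arrays lay within 0.19 of each other. The means were 6.16 ± 0.06 and 6.62 ± 0.84 (SD, n = 3 each). The difference was -0.46 (SE 0.41, 95% interval -1.48 to 0.57, limma adjusted p = 0.921). Without wild type 1 it was 0.028 (SE 0.13, 95% interval -0.28 to 0.33, limma adjusted p = 0.997).

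Ngfr encodes p75, a neurotrophin receptor of immature and non-myelinating Schwann cells that other perivascular cells and neurons carry too. It gave 6.34, 6.12 and 6.07 on the knockout arrays and 6.77, 6.03 and 6.19 on the wild-type arrays. Wild type 1 was again highest, with knockout 1 next. The means were 6.18 ± 0.14 and 6.33 ± 0.39 (SD, n = 3 each). The difference was -0.15 (SE 0.22, 95% interval -0.69 to 0.38, limma adjusted p = 0.921). Without wild type 1 it was 0.068 (SE 0.14, 95% interval -0.27 to 0.40).

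**Figure D2:**
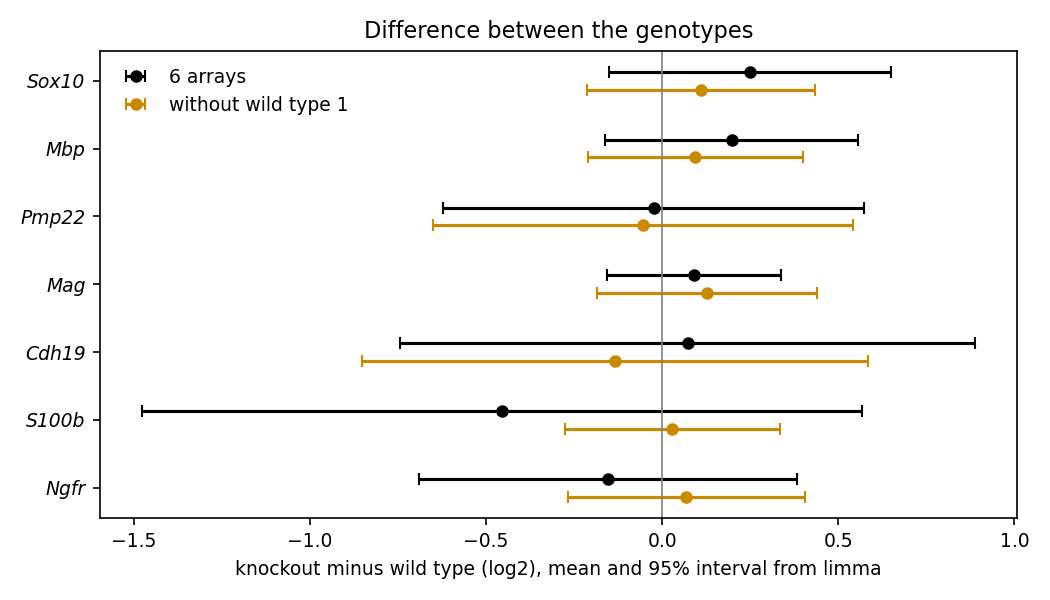
Knockout minus wild type (log2) for each gene, as the estimate and 95% interval from limma, on all 6 arrays (black) and without wild type 1 (ochre). Every interval includes 0; the interval of S100b runs from -1.48 to 0.57 with wild type 1 and from -0.28 to 0.33 without it.

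The intervals bound what these arrays could have shown. Without wild type 1, the intervals of Sox10, Mbp, Mag, S100b and Ngfr all lay within 0.44 of 0. Those of Pmp22 and Cdh19 were wider, reaching -0.65 and -0.85.

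Wild type 1 was then set against the other 5 arrays as a description with no test, since this array was singled out from these data. It was the highest of the 6 arrays for S100b and Ngfr, the lowest for Sox10 and Mbp, and neither for Pmp22, Mag and Cdh19. Over all 23410 annotated probe sets it was highest for 32.2% and lowest for 25.8%, so 4 of 7 at an extreme is close to the 58% found over the whole array. S100b was 1.43 above the mean of the others (2.70-fold) and 1.35 above the highest of them. It was the 1 gene of the 7 over 2-fold above every other array, where 4.6% of annotated probe sets were, and 0 of 7 were over 2-fold below, where 4.52% were. Ngfr was 0.62 above the mean of the others (1.54-fold). Cdh19, Sox10 and Mbp lay on the other side, with differences from that mean of -0.54, -0.48 and -0.37. Pmp22 and Mag differed from it by -0.060 and 0.034, both less than the SD of the other 5 arrays (0.33 and 0.10).

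The 7 genes were not all on one side on wild type 1. The regulator Sox10, the compact myelin gene Mbp and the adhesion gene Cdh19 were low, and the markers S100b and Ngfr were high. Adipocyte genes were over 2-fold above every other array on wild type 1 for 10 of 10, with Adipoq, the gene of the hormone adiponectin, at 11.52 against 6.54 to 9.23. Cartilage genes were highest there for 3 of 8 and melanocyte genes for 0 of 8, and over 2-fold above all others for 0 of 8 in both lists. The 3 were Acan, a cartilage proteoglycan, at 5.87 against 4.86 to 5.31, Comp, a cartilage matrix protein, at 6.59 against 5.83 to 5.96, and Cnmd at 5.44 against 4.89 to 5.31. Wild type 1 was instead lowest for 3 of the 8 cartilage genes. These were Sox9, Hapln1 and Col11a1, with Sox9 at 6.45 against 6.47 to 7.12. Endothelial genes were highest on wild type 1 for 8 of 8 and over 2-fold above all others for 4 of 8, against 32.2% and 4.6% of annotated probe sets. The part of all these cells in the values of S100b and Ngfr was not tested.

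**Figure D3:**
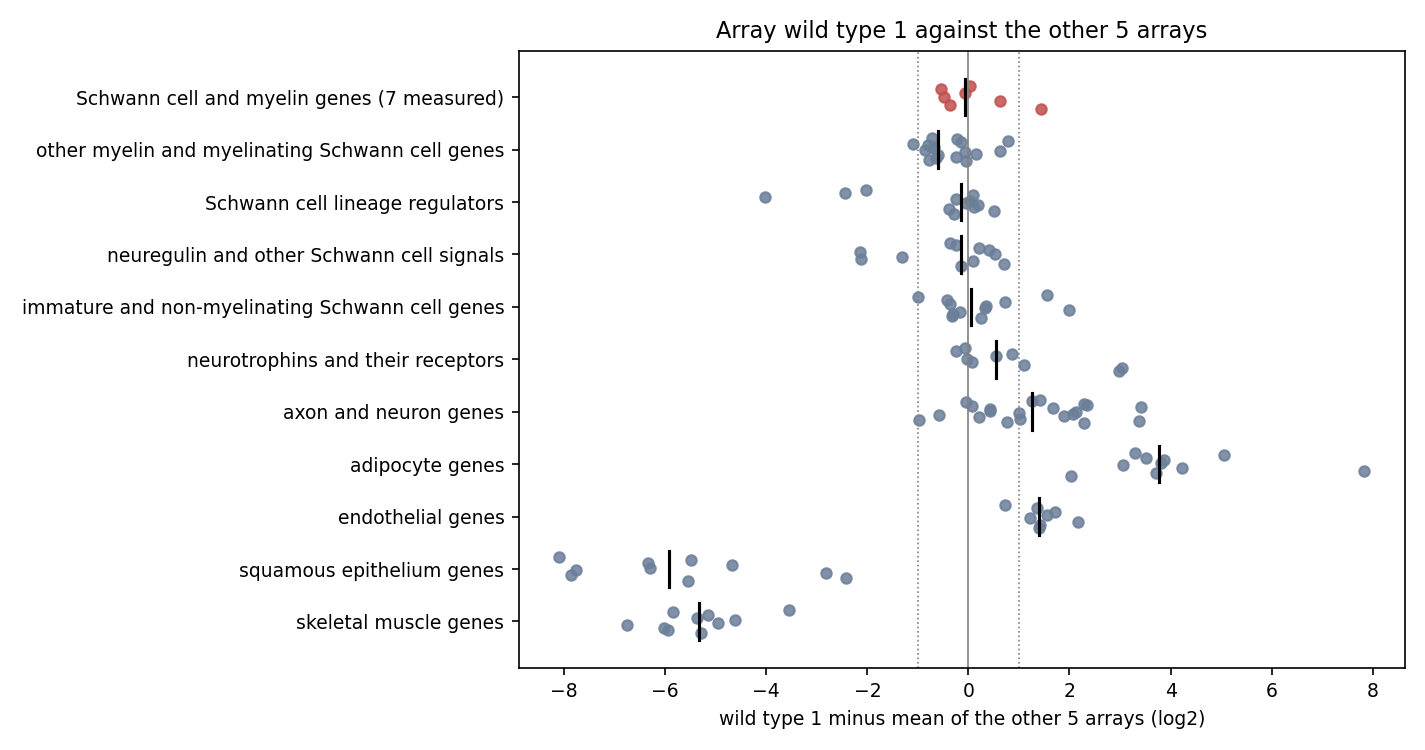
Wild type 1 minus the mean of the other 5 arrays (log2), 1 point per gene, for the measured Schwann cell and myelin genes (red) and 10 further lists; black bars are list medians and dotted lines mark 2-fold. The Schwann cell and myelin genes lie between -0.54 and 1.43, with adipocyte genes to the right and squamous epithelium and skeletal muscle genes to the left. Axon and neuron genes run from -0.97 (Vip) to 3.41 (Syt1) and overlap that range.

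Genes that act with the 7 in nerve were examined through lists of their own, in which no gene had a limma adjusted p under 0.05 on 6 arrays. Signs and medians are given over all measured genes of a list, since the filter can admit a gene through the array on which it is high; over all annotated probe sets, 50.6% were higher in the knockout, and 52% without wild type 1. Of 17 other myelin and myelinating Schwann cell genes, 14 were higher and 3 lower in the knockout, with a median difference of 0.27, and 13 were higher and 4 lower without wild type 1 (median 0.20). Cnp, a myelin enzyme of the cytoplasmic channels, differed by 0.27 (SE 0.14), with 7.74, 7.46 and 7.85 on the knockout arrays and 7.36, 7.39 and 7.49 on the wild-type arrays. Cadm4, an adhesion molecule on the Schwann cell side of the axon contact, differed by 0.34 (SE 0.20) and by 0.15 without wild type 1, where it was lowest at 6.52. Wild type 1 was the lowest array for 10 of the 17, against 25.8% of annotated probe sets. Among the 10 was Cd9, a tetraspanin also found on many other cells, at 10.16 there against 10.71 to 11.11. Dag1, dystroglycan, was highest there at 9.81 against 8.94 to 9.18.

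Knockout 2 was the high array for part of the same list. There 4 of 17 genes were over 2-fold above every other array, against 1.15% of annotated probe sets, and 0 of the 7 Schwann cell and myelin genes were. These 4 were Mal, Pllp, Gjb1 and Fa2h, named after their values were seen, which encode membrane and lipid proteins used by myelin and by epithelia. Mal gave 9.46 on knockout 2 and 6.57 to 7.11 elsewhere, and Fa2h gave 8.46 and 5.08 to 5.85. All 7 measured stomach epithelium genes were over 2-fold above every other array on knockout 2, and their part in these values was not tested. Pmp22 and Cdh19 had their lowest value on this array, which was lowest for 18% of annotated probe sets.

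The regulators around Sox10 had 8 of 12 genes higher and 4 lower in the knockout (median 0.14, and 0.022 without wild type 1). Egr2, which drives myelination, gave 6.37 on wild type 1 and 5.75 to 6.00 elsewhere. Pou3f1, which acts before it, ranged only from 6.30 to 6.56. Nab1 and Nab2, corepressors of Egr factors, differed by -0.049 (SE 0.14) and 0.16 (SE 0.13), and Zeb2, a factor of Schwann cell maturation, by -0.088 (SE 0.16). Foxd3, an early neural crest factor, differed by 0.19 (SE 0.15). Sox2, Tfap2a and Tead1 were over 2-fold below every other array on wild type 1, with Sox2 at 4.73 against 8.44 to 8.99. On that array all 10 squamous epithelium and all 10 skeletal muscle genes were also over 2-fold below, and their part in these 3 values was not tested.

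Genes of neuregulin and other Schwann cell signalling, a list of ligands, receptors and proteases, had 9 of 11 higher and 2 lower in the knockout (median 0.10). Without wild type 1, 8 were higher and 3 lower (median 0.11). The neuregulin receptors Erbb2 and Erbb3 differed by 0.80 (SE 0.59) and 0.80 (SE 0.59). Erbb3 gave 8.998, 9.35 and 9.18 on the knockout arrays and 7.01, 9.28 and 8.84 on the wild-type arrays. Without wild type 1 the differences were 0.10 for Erbb2 and 0.11 for Erbb3. Adgrg6, a receptor needed for myelination, was low on the same array at 6.47 against 7.56 to 8.06. These 3 were the genes of the list over 2-fold below every other array on wild type 1. All 10 squamous epithelium and all 10 skeletal muscle genes were too, and their part in these 3 values was not tested. The receptors Ptch1 and Adam22 were not low on wild type 1, at 7.52 against 7.13 to 7.63 and 5.40 against 4.42 to 4.89. Adam17, a protease that sheds neuregulin, and Gas6, a growth factor of glia and vessel wall, differed by 0.032 (SE 0.16) and 0.10 (SE 0.25).

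**Figure D4:**
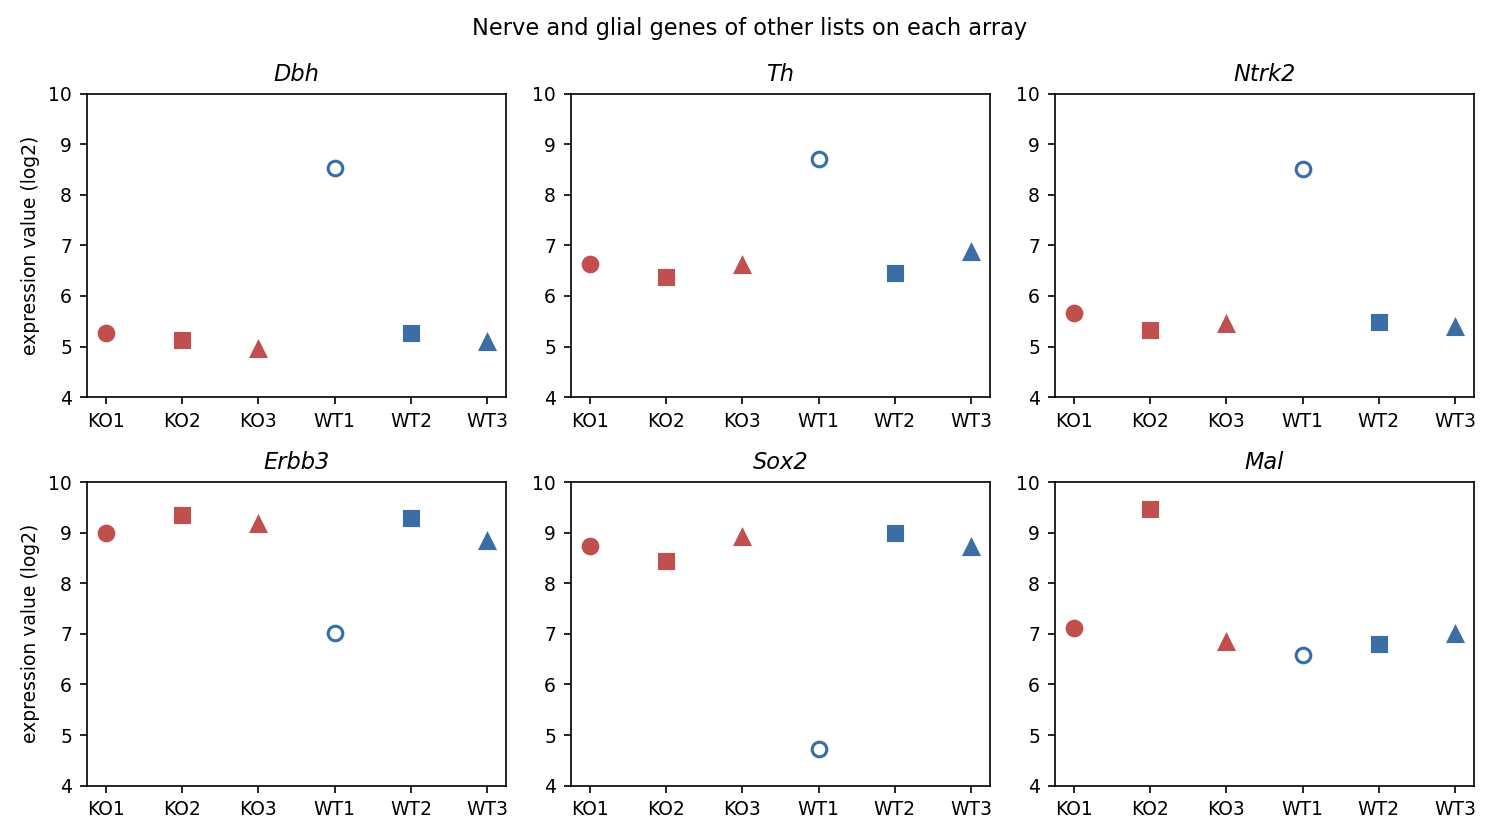
Expression value (log2) of 6 nerve and glial genes on each array (KO, knockout; WT, wild type; numbers are replicates). The open circle is wild type 1, which is high for Dbh (8.52), Th (8.71) and Ntrk2 (8.51) and low for Erbb3 (7.01) and Sox2 (4.73); Mal is high on knockout 2 (9.46).

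Immature and non-myelinating Schwann cell genes were split on wild type 1, which was highest for 6 and lowest for the other 6 of the 12 measured. Over all annotated probe sets it was highest for 32.2% and lowest for 25.8%. Gap43, a growth protein of axons and immature glia, gave 8.61 on wild type 1 against 6.93 to 7.27. Fabp7, a lipid-binding protein of glial precursors and satellite glia, gave 7.08 against 4.77 to 5.32. These were the 2 genes of the list over 2-fold above every other array. Scn7a, a sodium channel of non-myelinating Schwann cells, and Matn2 were lowest there, at 9.36 against 9.53 to 10.03 and at 7.69 against 8.51 to 8.77. Between the genotypes, 7 of the 12 genes were higher and 5 lower in the knockout (median 0.064), and without wild type 1, 9 were higher and 3 lower (median 0.074). Ncam1, an adhesion molecule of non-myelinating Schwann cells, differed by -0.38 (SE 0.24) and by -0.18 without wild type 1, and Art3 by -0.29 (SE 0.21).

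Another list held neurotrophins, their receptors and proteins that act with these, without Ngfr itself. Of its 9 measured genes, 5 were highest on wild type 1, against 32.2% of annotated probe sets. The receptor tyrosine kinase Ntrk2 gave 8.51 there against 5.33 to 5.66, and Ntrk3 gave 8.59 against 5.47 to 5.75. Sort1, a partner of p75, gave 9.53 against 8.07 to 8.97. Maged1 and Bex3, which bind the inner part of p75, gave 8.92 against 7.92 to 8.21 and 7.48 against 6.80 to 7.25. The neurotrophin genes Bdnf and Ntf5 were not above the others there, at 5.47 and 5.76. Between the genotypes, 4 of the 9 genes were higher and 5 lower in the knockout (median -0.063), and without wild type 1, 8 were higher and 1 lower (median 0.049).

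Axon and neuron genes, the partners of Schwann cells in nerve, were mostly high on wild type 1. That array was highest for 16 of 21, against 32.2% of annotated probe sets. It was over 2-fold above all others for 11 of 21, against 1 of 7 Schwann cell and myelin genes and 4.6% of annotated probe sets. Dbh and Th, the enzymes of noradrenaline synthesis in sympathetic nerve, gave 8.52 against 4.96 to 5.28 and 8.71 against 6.37 to 6.87. Uchl1, an abundant neuronal enzyme, gave 9.31 against 6.79 to 7.49, Stmn2 gave 8.88 against 6.37 to 6.80, and Npy, a transmitter of sympathetic fibres, gave 8.63 against 6.83 to 7.08. Vip and Tac1, transmitters of other autonomic and sensory fibres, were instead lowest there, at 4.90 against 5.74 to 6.04 and 3.33 against 3.82 to 4.02. Both lay below the filter on dim signals, as did Dbh. Of the 21 axon genes, 4 were higher and 17 lower in the knockout (median -0.29), and without wild type 1, 17 were higher and 4 lower (median 0.067).

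Oligodendrocyte genes, which mark the central counterpart of Schwann cells and share Mbp and Mag with them, had 10 of 12 genes higher and 2 lower in the knockout (median 0.089, and 0.12 without wild type 1). The 3 above the filter were Nkx6-2, Myrf and Cldn11, which differed by 0.27 (SE 0.13), 0.64 (SE 0.53) and 0.14 (SE 0.16). Myrf gave 7.80 on knockout 2 and 5.64 to 6.34 elsewhere. Mog and Mobp, proteins of central myelin, lay below the filter, at 5.20 to 5.66 and 4.95 to 5.13.

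On the 5 arrays other than wild type 1, knockout 1 lay above the 5-array mean for 6 of 7 genes (median deviation 0.17) and wild type 3 for 5 of 7 (0.040). Knockout 3 was above it for 3 of 7 (-0.064), knockout 2 for 2 (-0.046) and wild type 2 for 1 (-0.073). The median of all annotated probe sets was also highest on knockout 1, at 6.466 against 6.385 to 6.425 on the rest of these 5 arrays. Knockout 1 was the highest of the 6 arrays for Sox10, Mbp and Pmp22, and it was highest for 23.2% of annotated probe sets. The profile of the 7 genes, each centred on its mean and then averaged, was 0.17 on knockout 1. It was -0.18 on knockout 2, where Pmp22 and Cdh19 were low, and between -0.078 and 0.076 on the rest. The 0.076 of wild type 1 averaged S100b and Ngfr, highest there, with Sox10 and Mbp, lowest there. Single genes therefore depart from this profile. Of 12032 other genes tested, the 5 whose values over the 6 arrays were most like this profile were Fam181b, Fgf1, Zfp3, Upk3b and Tbx5, with Pearson r from 0.963 to 0.983, given as a measure of likeness only. Without knockout 1 and 2, the arrays farthest from the middle of the profile, r was 0.905 to 0.996 over the remaining 4. Those 4 were among the 6 arrays used to pick the genes, so this is no independent check. Fgf1, a fibroblast growth factor, gave 7.87 on knockout 1, 7.12 on knockout 2 and 7.44 to 7.82 on the rest.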

How the data were processed

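The deposited table holds log2 values, 1 column per sample, for 35399 probe sets on 6 one-colour arrays. The log base, which no source states, was inferred from the range (1.55 to 13.96). MAS5 is named, without version or role, per the submitters' processing notes. Background correction, summary method, scaling and build were not given in the sources used here, and how dim signals were treated could change small differences of dim genes such as Mag. Values were used as deposited. Probe sets were named from the platform annotation (21789 with 1 symbol, 1621 with several, 11989 unnamed), and genes by their probe set of highest mean. Groups and replicate numbers came from the titles.

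The genotypes were compared by limma 3.58.1 under R 4.3.3 in a two-group model, with eBayes moderation along an intensity trend and p-values adjusted by Benjamini-Hochberg, on the 14046 annotated probe sets above the lowest 40% by mean. The code was tested on simulated data. Wild type 1 against the other 5 arrays was described without a test. The 8 genes and the lists (177 of 187 symbols on the array) were chosen with earlier results of these data known. Named genes were all members, the 3 of highest mean and 2 of lowest p per list, and the 5 of most similar pattern; other names were chosen after their values were seen, and not every gene the rule names is described. Alternatives were a constant of 64, quantile normalization, median centring, other filters, other moderation, array weights, a replicate block and leaving out arrays. Upstream sequences came from a supplied table of RefSeq promoters (GRCm38.p6), in which 5 of the 8 genes were matched.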

Additional observations from a re-analysis of the deposited data

How the results depend on the processing

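Of the 7 measured genes and of all probe sets tested, 0 passed at an adjusted p under 0.05 in limma under each of the 17 alternatives, and the lowest adjusted p of a measured gene was 0.762. Sox10, Mbp and Mag kept a higher mean in the knockout in all of them. Others changed sign, with the cause not tested. Pmp22 became 0.036 with quantile normalization and 0.081 with array weights, where Cdh19 was -0.042 and Ngfr 0.057. Leaving out 1 array at a time gave -0.27 to 0.18 for Pmp22, -0.13 to 0.39 for Cdh19, -0.74 to 0.028 for S100b and -0.31 to 0.068 for Ngfr, and -0.041 to 0.18 for the median of the 7. Dropping a pair of arrays was decided only after seeing the data. Besides wild type 1, without knockout 2, Pmp22 was 0.15, S100b 0.057 and Ngfr 0.097, and without knockout 1, Cdh19 was -0.25 and S100b 0.035. The replicate numbers share only a number: deviations of same-numbered arrays correlated at 0.095, -0.23 and 0.20, and with the replicate block the median difference of the 7 stayed 0.073 with 0 calls. Each measured gene has 1 probe set, so averaging probe sets changed nothing. The scanner files were not used here, so the background correction could not be redone.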
